A study of Mus musculus with 28 samples.

Results

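The 9 genes of GABA synthesis and cortical interneurons studied here were followed across all 28 libraries of the series: Gad1, Gad2, Slc32a1, Pvalb, Sst, Vip, Npy, Lhx6 and Dlx1, which are 9 of the 43629 genes counted. They were listed by name, as genes of inhibitory neurons and not by their values, and all 9 were in the table. The libraries came from Glt25d2 BacTRAP mice, a line in which the Glt25d2 gene (now Colgalt2), expressed in cortical layer 5 projection neurons, drives a tag on ribosomes. Immunoprecipitation of the tagged ribosomes gave the IP libraries, and RNA of the cortex before the pulldown gave the input libraries. Each fraction was sequenced from healthy mice (5 IP and 5 input libraries) and from mice of the same line with EAE (experimental autoimmune encephalomyelitis, in which immunisation with the myelin peptide MOG35-55 models multiple sclerosis). The EAE mice were taken in the acute phase, 15 days after immunisation (5 and 5), or in the chronic phase, 30 days after it (4 and 4). The labels state neither age, sex nor strain background, nor that each library is a separate mouse, so the p-values rest on a spread between libraries that could be technical.

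Inhibitory neurons of the cortex make the transmitter GABA from glutamate with glutamic acid decarboxylase and load it into synaptic vesicles. Most belong to classes known by a peptide or a calcium-binding protein, among them parvalbumin, somatostatin and vasoactive intestinal peptide. Layer 5 projection neurons are excitatory and are not known for most of these genes. In bulk RNA, fewer cells of a type and less RNA per cell cannot be told apart.

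Totals ran from 6198088 to 21229550 counts per IP library and from 17848273 to 27915940 per input library, with 9566 to 17995 and 20714 to 21734 genes detected. The common biological coefficient of variation was 1.06 among IP libraries and 0.101 among input libraries, so a change of a given size was harder to detect in IP. The pulldown was checked against 11 layer 5 markers. Of these, 7 in healthy, 8 in acute and 7 in chronic libraries were higher in IP than in input, where 7.20%, 8.56% and 8.74% of all genes were. Among them was Fezf2, a transcription factor of these neurons, by a log2 ratio of 1.87 ± 0.20 (SE) in healthy mice. Bcl11b, another layer 5 transcription factor, was called in none of the 3 phases. Colgalt2 itself had log2 ratios of 0.36 ± 0.16 in healthy, 0.63 ± 0.17 in acute and 0.75 ± 0.19 in chronic mice (adjusted p = 0.130, 0.00643 and 0.00295 by edgeR's quasi-likelihood test).

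Gad1 and Gad2 encode the 2 forms of glutamic acid decarboxylase. The ratio of their counts differed in some, not most, of the 9 pairs of groups compared further on. Slc32a1 and Sst separated the same 3 input libraries from the others. The sequence upstream of the RefSeq start of these 4 genes is shown for that reason, 5′ to 3′ on the gene's strand, as far as it holds no exon of the gene in the count table's annotation. The build is GRCm38.p6, and the stretches are chr2:70561879-70562041 (Gad1, plus strand), chr2:22622077-22622204 (Gad2, plus), chr2:158610508-158610757 (Slc32a1, plus) and chr16:23890845-23891094 (Sst, minus). Capitals mark matches to 4 motifs on either strand.
Gad1: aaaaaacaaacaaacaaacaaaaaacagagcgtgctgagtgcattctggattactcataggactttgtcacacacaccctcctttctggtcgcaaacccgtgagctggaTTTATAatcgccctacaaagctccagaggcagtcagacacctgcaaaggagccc
Gad2: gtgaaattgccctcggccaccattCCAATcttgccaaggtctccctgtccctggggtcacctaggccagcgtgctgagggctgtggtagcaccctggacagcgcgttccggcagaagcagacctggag
Slc32a1: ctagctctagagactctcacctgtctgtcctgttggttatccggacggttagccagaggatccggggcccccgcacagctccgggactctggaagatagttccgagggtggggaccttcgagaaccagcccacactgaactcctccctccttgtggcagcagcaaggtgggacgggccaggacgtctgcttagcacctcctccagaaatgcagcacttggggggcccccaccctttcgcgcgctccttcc
Sst: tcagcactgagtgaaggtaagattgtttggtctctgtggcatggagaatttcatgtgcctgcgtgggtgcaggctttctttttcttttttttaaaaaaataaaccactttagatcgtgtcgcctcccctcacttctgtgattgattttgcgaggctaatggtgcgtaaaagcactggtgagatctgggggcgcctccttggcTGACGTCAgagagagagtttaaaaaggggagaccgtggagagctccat

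The motifs searched were TATAAA (the TATA box), TGACGTCA (the cAMP response element), CCAAT (the CCAAT box) and GGGCGG (the GC box). Over 32851 RefSeq promoters, the 250 bases upstream of the start held them in 12.4%, 1.55%, 33.8% and 32.7%. The Gad1 window had a TATA match 141 bases upstream of the start and a GC box match 8 bases upstream, the second of which lies in an annotated exon and is not shown. The Gad2 window had 1 CCAAT match, 226 bases upstream. The Sst window had the whole cAMP response element 48 bases upstream of the start. The Slc32a1 window had none of the 4 strings, and no match overlapped another. A match is a description of the letters only.

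The genes differ in length and place. Gad1 (chromosome 2, 70553072 to 70602014, plus strand) has 7639 bases of summed exons and Gad2 (chromosome 2, 22622205 to 22693874, plus) has 5876. Slc32a1, the vesicular GABA transporter, lies at 158610767 to 158615748 of chromosome 2. Its exons share 697 bases, or 24.9% of their length, with Gm14205 on the opposite strand. The counts carry no strand, so reads of the shared bases cannot be told apart by gene. Whether such reads were counted for Slc32a1, for Gm14205 or left out was not examined. Dlx1 shares 6.21% of its exon length with the antisense gene Dlx1as, and Lhx6 shares 2.16% with Gm27953 on its own strand. The other 6 genes share no exon with another gene of the table.

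Per kilobase of summed exon length, Sst was the most abundant of the 9 in healthy input, at 257.5 ± 56.9 CPM per kb (mean ± SD, n = 5; CPM are counts scaled to the library size adjusted by TMM). Npy followed at 100.1 ± 12.5 and Pvalb at 95.5 ± 9.48, and the libraries of these 2 genes overlapped. Gad1 stood at 55.3 ± 3.54 CPM per kb, Gad2 at 35.9 ± 5.48 and Slc32a1 at 24.2 ± 7.17, where Gad2 and Slc32a1 overlapped. Vip had 17.8 ± 1.18, Dlx1 10.5 ± 0.491 and Lhx6 6.66 ± 0.508 CPM per kb, each apart from its neighbours in the order. The order was the same in acute and in chronic input, with Vip also overlapping Slc32a1 in acute input. In IP the order was looser. In healthy IP, Sst (87.3 ± 35.1 CPM per kb) and Pvalb (85.9 ± 19.8) overlapped, as did every other pair of neighbours except Gad2 over Vip and Dlx1 over Lhx6. In chronic IP, Gad1 was second at 86.8 ± 11.8 CPM per kb (n = 4), below Sst at 138.5 ± 93.2 and overlapping it.

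**Figure D1:**
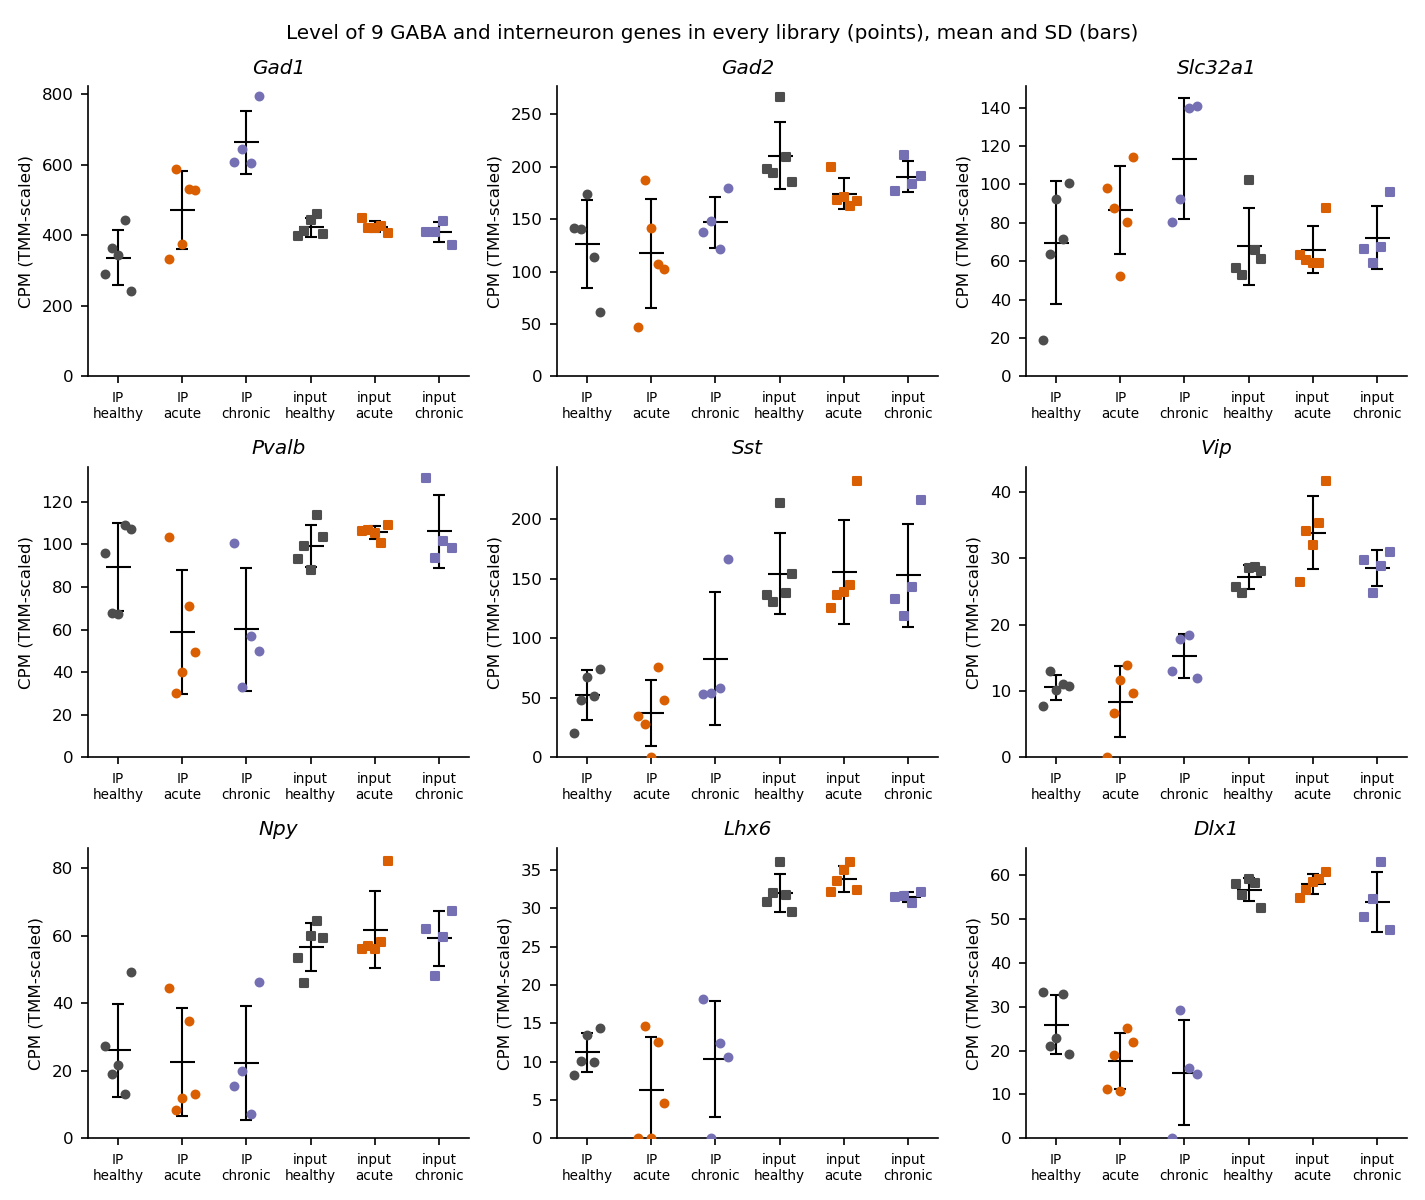
Level of each of the 9 genes in TMM-scaled CPM (vertical axis, from 0) in every library, by fraction and phase; points are libraries, long bars the mean and capped bars the SD. The 4 chronic IP libraries hold Gad1 at 604.5 to 795.5 CPM, above all other libraries, while Sst, Vip, Npy, Lhx6 and Dlx1 are mostly lower in IP than in input.

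Gad1 encodes GAD67, the decarboxylase form found throughout the neuron that makes most cortical GABA. In IP it had 606.7, 645.9, 604.5 and 795.5 CPM in the chronic libraries, against 288.8, 363.9, 345.3, 443.7 and 241.7 CPM in the healthy ones. Every chronic library lay above every healthy one. The mean was 663.1 ± 90.2 CPM in chronic IP (SD, n = 4) and 336.7 ± 76.8 in healthy IP (n = 5), a log2 change of 0.97 ± 0.19 (SE) with an adjusted p of 0.0271 by edgeR's quasi-likelihood test over 13914 genes. Of the 9 genes Gad1 alone was called in this contrast, in which 0.180% of all genes (25) were called higher. The call lay close to the threshold and was lost without any 1 of several libraries. It held in 3 of 9 fits that left out 1 library, with adjusted p from 0.0189 to 0.131 and log2 changes from 0.88 to 1.09. It was lost without chronic IP library 2, 3 or 4 or healthy IP library 1, 3 or 5, and held under all 7 other alternatives.

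The acute IP libraries lay between. Gad1 had 332.0, 587.5, 374.8, 530.9 and 528.1 CPM there, a mean of 470.7 ± 110.7 (n = 5) that overlapped healthy IP. Acute against healthy IP gave a log2 change of 0.47 ± 0.18 (adjusted p = 0.527), and chronic against acute IP gave 0.50 ± 0.19 (adjusted p = 0.490). In input the gene was not called between phases. It had 397.0, 412.1, 442.0, 459.6 and 402.1 CPM in healthy input, 448.0, 420.0, 420.8, 425.6 and 404.9 in acute input, and 409.9, 410.5, 441.1 and 373.0 in chronic input. The 3 input groups overlapped. Chronic against healthy input gave a log2 change of -0.05 ± 0.05 (adjusted p = 0.747), and acute against healthy input gave 0.00 ± 0.05 with a 95% interval from -0.10 to 0.10.

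The difference between the fractions was itself tested, in a fit of all 28 libraries with a single spread per gene for both fractions. The chronic change of Gad1 was larger in IP than in input by 1.03 ± 0.21 on the log2 scale (adjusted p = 0.0170), in a contrast that called 0.633% of 16580 genes higher. The call was lost without the chronic IP and input libraries numbered 4 (0.89, adjusted p = 0.0653) and without the 3 input libraries described further on (0.97, adjusted p = 0.136). It held in the other 8 fits without 1 numbered pair of libraries. The acute interaction of Gad1 was 0.48 ± 0.20 (adjusted p = 0.259), and 0 of the 9 genes were called there by edgeR, where 0.00603% of all genes were. Of the 9 genes Gad1 alone had an unadjusted p under 0.05 in that contrast, and DESeq2 and voom called 0. With the 4 IP libraries of fewest detected genes left out, the acute interaction of Gad1 was 0.69 with an adjusted p of 0.00553.

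The levels of other cell types' markers and the depth of these libraries stood as follows. The summed level of 8 astrocyte markers was 464.4 to 1385 CPM in chronic IP, against 270.2 to 560.7 in healthy IP. For 8 microglia markers the sums were 41.9 to 160.1 CPM in chronic IP and 15.9 to 42.9 in healthy IP, with up to 4 and up to 5 of the 8 at 0 in a library. For 8 oligodendrocyte markers they were 1231 to 3059 CPM in chronic IP and 1061 to 1386 in healthy IP. The 24 other interneuron markers summed to 1177 to 1753 CPM in chronic IP and 1275 to 1831 in healthy IP. In healthy input they summed to 1196 to 1507, although 18 of the 24 had a log2 ratio of IP over input below 0 (median -0.70). Their sum thus does not follow most of these markers and is no measure of interneuron RNA. In chronic against healthy IP 13 of the 24 had a positive and 11 a negative log2 change. Totals were 11396791 to 19309770 counts in chronic IP and 13082121 to 18657486 in healthy IP. The chronic range of totals enclosed the healthy one. The astrocyte, microglia and oligodendrocyte sums reached higher in chronic IP and overlapped healthy IP, but no gene of the 4 lists was called by edgeR, and their part in the result was not tested.

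Gad2 encodes GAD65, the form attached to synaptic vesicles. In IP it had 141.1, 140.5, 173.8, 113.6 and 61.6 CPM in the healthy libraries, 47.1, 187.8, 141.3, 107.6 and 102.4 in the acute ones, and 138.0, 148.2, 121.9 and 179.7 in the chronic ones. The 3 groups overlapped throughout. The log2 change was 0.21 ± 0.31 in chronic against healthy IP, with a 95% interval from -0.43 to 0.86, and -0.11 ± 0.30 in acute against healthy IP (adjusted p = 1 in both). Slc32a1, which loads GABA into vesicles, had 18.9, 63.8, 92.6, 71.7 and 100.8 CPM in healthy IP, 97.9, 87.7, 52.5, 80.1 and 114.4 in acute IP, and 80.4, 92.1, 139.9 and 140.8 in chronic IP. The healthy libraries overlapped both other groups. Its log2 change in chronic against healthy IP was 0.70 ± 0.35 (adjusted p = 0.497), with an interval from -0.02 to 1.42 that also covers the change of Gad1.

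Because Gad1 and Gad2 make the same enzyme activity, the ratio of their counts was compared within each library, a measure that does not depend on library size. The comparison was added after the levels had been seen and covers 9 pairs of groups. The ratio was 2.05, 2.59, 1.99, 3.91 and 3.92 in healthy IP, 7.04, 3.13, 2.65, 4.93 and 5.16 in acute IP, and 4.40, 4.36, 4.96 and 4.43 in chronic IP. All chronic IP libraries lay above all healthy ones. The mean was 4.54 ± 0.285 in chronic IP and 2.89 ± 0.964 in healthy IP (two-sided exact permutation p = 0.0159, the smallest that 4 against 5 libraries allow; adjusted over the 9 tests, 0.0477). Acute IP, at 4.58 ± 1.76, did not differ from healthy IP beyond the spread (exact permutation p = 0.0794, adjusted 0.119).

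In input, the ratio was 2.44 ± 0.136 in acute libraries and 2.03 ± 0.219 in healthy ones (SD, n = 5 each; exact permutation p = 0.00794, the smallest that 5 against 5 allow; adjusted 0.0357). Every acute input library, from 2.24 to 2.61, lay above every healthy one, from 1.66 to 2.19. Chronic input had 2.15 ± 0.239 (n = 4) and overlapped both (exact permutation p = 0.492 against healthy input). Between the fractions the ratio was 4.58 in acute IP against 2.44 in acute input (exact permutation p = 0.00794, adjusted 0.0357). It was 4.54 in chronic IP against 2.15 in chronic input (exact permutation p = 0.0286, the smallest that 4 against 4 allow; adjusted 0.0644), with no overlap between the 4 IP and the 4 input libraries. In healthy mice the ratio was 2.89 in IP and 2.03 in input, with overlap (exact permutation p = 0.111).

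**Figure D2:**
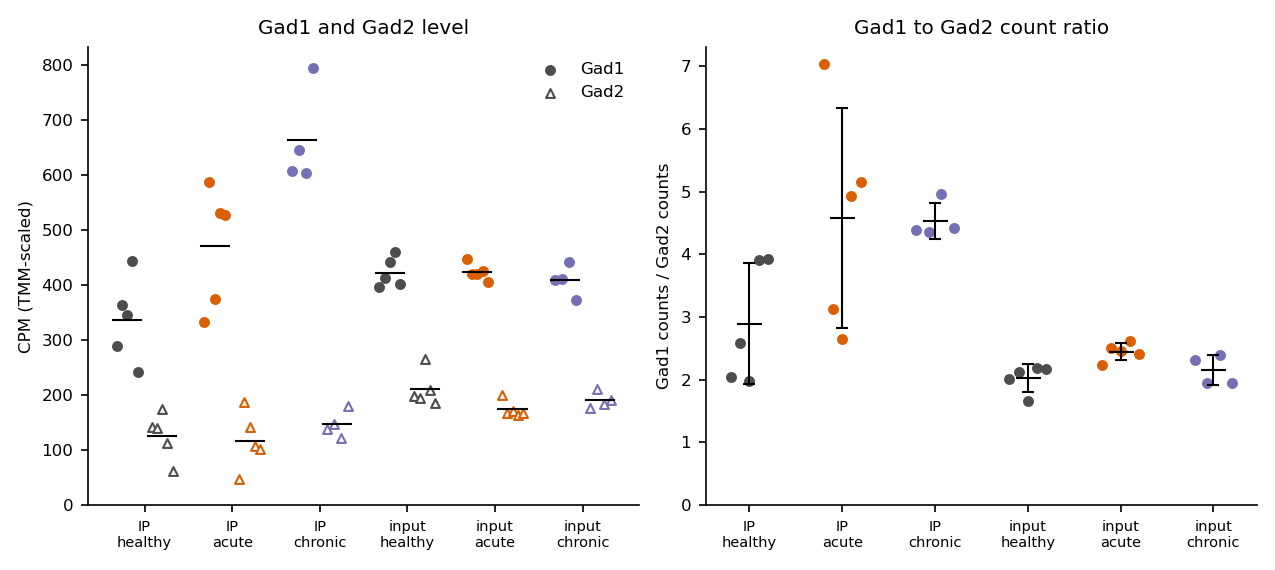
Left, Gad1 (filled circles) and Gad2 (open triangles) in TMM-scaled CPM in every library, with the mean of each group as a line; right, the ratio of Gad1 to Gad2 counts in each library, with mean (long bar) and SD (capped bar), both axes from 0. The ratio is 4.36 to 4.96 in the 4 chronic IP libraries and 1.99 to 3.92 in the 5 healthy IP libraries, and acute IP spans 2.65 to 7.04.

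By edgeR none of the peptide and calcium-binding genes was called between phases in IP. Pvalb, the calcium-binding protein of fast-spiking interneurons, had 95.8, 67.8, 67.1, 108.9 and 107.3 CPM in healthy IP, 103.5, 30.3, 40.1, 71.3 and 49.3 in acute IP, and 100.6, 33.1, 57.1 and 49.9 in chronic IP. Its log2 change was -0.61 ± 0.33 in acute (adjusted p = 0.948) and -0.57 ± 0.36 in chronic IP (adjusted p = 0.737), each against healthy IP. Of the acute libraries 2, and of the chronic ones 1, lay within the healthy range, and the others lay below it. Sst, the inhibitory peptide of dendrite-targeting interneurons, had 52.8, 54.1, 58.4 and 166.7 CPM in chronic IP, against 20.1, 47.8, 67.4, 51.8 and 74.3 in healthy IP. Only chronic library 4 lay above the healthy libraries (log2 change 0.66 ± 0.80, adjusted p = 1).

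Vip, the peptide of interneurons that mainly contact other interneurons, had 13.0, 17.9, 18.5 and 12.01 CPM in chronic IP and 7.80 to 13.0 CPM in healthy IP (log2 change 0.53 ± 1.07, adjusted p = 1). The SE of Vip comes from the fit of all 14 IP libraries, which holds acute IP library 1 at 0 counts. Vip averaged 15.3 ± 3.32 CPM in chronic IP (SD, n = 4) and 10.6 ± 1.88 in healthy IP (n = 5), and neither group held a library at 0. Npy, neuropeptide Y, had 15.6, 19.9, 7.27 and 46.3 CPM in chronic IP and 13.1 to 49.1 in healthy IP. Lhx6, a transcription factor of the Pvalb and Sst lineages, had 18.1, 0, 12.5 and 10.6 CPM in chronic IP and 8.26 to 14.4 in healthy IP. Dlx1, a transcription factor of interneuron development, had 0, 29.2, 16.1 and 14.6 CPM in chronic IP and 19.3 to 33.4 in healthy IP.

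Counts of 0 occurred in IP and in no input library. Sst had 0 counts in acute IP library 3, Vip in acute IP library 1, Lhx6 in acute IP libraries 1 and 3 and chronic IP library 2, and Dlx1 in chronic IP library 1. With a floor of 3 counts these allow levels of up to 0.195 to 0.484 CPM on the plain library total, which covers counting error only. The same genes had 4.58 to 76.2 CPM in the acute IP libraries where they were found. By edgeR 0 of the 9 genes were called in acute against healthy IP, where 0.0647% of all genes were, and 0 in chronic against acute IP, where 0% were. In each of these contrasts 1 of the 9, Gad1, had an unadjusted p under 0.05. Voom with sample weights called Gad1 in acute against healthy IP (log2 change 0.51, adjusted p = 0.0272) and DESeq2 called 0 of the 9. In chronic against acute IP, DESeq2 called Gad1 (0.53, adjusted p = 0.0479) and voom 0.

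IP was then compared with input within each phase, on the fit of all 28 libraries. That fit held a single spread per gene for both fractions. Its common biological coefficient of variation was 0.71, beside 1.06 in IP and 0.101 in input alone. Its SEs and intervals may therefore be too narrow for IP. For Lhx6 the SE of the acute interaction was 1.16, below the 1.42 of acute against healthy IP. The median log2 ratio over all 16580 genes was -0.23 in healthy, -0.36 in acute and -0.32 in chronic mice, and the ratios of the 9 genes stand beside that shift. In this fit Gad1 alone of the 9 genes was called higher in IP, and in chronic mice alone. It had 663.1 ± 90.2 CPM in chronic IP and 408.6 ± 27.8 in chronic input (SD, n = 4 each), a log2 ratio of 0.70 ± 0.16 (adjusted p = 0.00120), in a contrast where 8.74% of all genes were called higher. The call held in all 4 fits without 1 numbered pair of libraries (adjusted p from 0.00365 to 0.0199) and under all 8 other alternatives. In acute mice the log2 ratio of Gad1 was 0.15 ± 0.14 (adjusted p = 0.519), and in healthy mice -0.33 ± 0.14 (adjusted p = 0.0978). In 3 alternatives edgeR or DESeq2 called it lower in healthy IP: DESeq2 (-0.36), DESeq2's size factors (-0.36) and the fit without the healthy libraries numbered 4 (-0.42, adjusted p = 0.0398). In 2 others it was called higher in acute IP, voom (0.32, adjusted p = 0.00713) and the fit without those 4 IP libraries (0.49, adjusted p = 0.000781).

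In healthy mice 3 of the 9 were called lower in IP, against 14.4% of all genes. Gad2 averaged 126.1 ± 41.9 CPM in healthy IP and 210.7 ± 32.2 in healthy input (log2 ratio -0.74 ± 0.24, adjusted p = 0.0211), and all 5 IP libraries, at 173.8 CPM or less, lay below all 5 input libraries, at 185.6 CPM or more. Sst averaged 52.3 ± 21.0 CPM in healthy IP and 154.2 ± 34.1 in healthy input (-1.56 ± 0.53, adjusted p = 0.0320). Npy averaged 26.0 ± 13.9 CPM in healthy IP and 56.6 ± 7.10 in healthy input (-1.12 ± 0.41, adjusted p = 0.0463). Vip, at -1.36 ± 0.53, missed the threshold (adjusted p = 0.0697) but was called under DESeq2 (adjusted p = 0.00811), with healthy libraries alone in the fit (0.000761) and without the 4 IP libraries of fewest detected genes (3.54e-05). Lhx6 and Dlx1 were called with healthy libraries alone (-1.51 and -1.13, adjusted p = 0.000408 and 0.00112) and under voom (0.0335 and 0.0246), and Lhx6 also without those 4 IP libraries (0.0254). Without 1 numbered pair, Gad2 was lost without 4 or 5 (up to 0.0746), and Sst and Npy were each lost without 1, 2, 3 or 4 (up to 0.108 and 0.183). Sst was also lost with no filter on low counts (0.0631) and under voom (0.0691). Without the 3 input libraries described further on, none of the 3 was called.

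In acute mice 5 of the 9 were called lower in IP, against 10.1% of all genes. Sst averaged 37.4 ± 27.9 CPM in acute IP and 155.6 ± 43.4 in acute input (SD, n = 5 each; log2 ratio -2.04 ± 0.54, adjusted p = 0.00649). Every acute IP library of Sst, at 76.2 CPM or less, lay below every acute input library, at 125.2 CPM or more. Vip averaged 8.40 ± 5.40 CPM in acute IP and 33.9 ± 5.52 in acute input (-2.01 ± 0.55, adjusted p = 0.00816), again with no overlap. Dlx1 had a log2 ratio of -1.71 ± 0.53 (adjusted p = 0.0213), Npy of -1.46 ± 0.41 (adjusted p = 0.0109) and Pvalb of -0.84 ± 0.25 (adjusted p = 0.0177). Lhx6 had -2.39 ± 0.86 and an adjusted p of 0.0502. The calls of Sst and Vip held in all 5 fits without 1 numbered pair. Npy was lost without number 5 (adjusted p = 0.0857), Pvalb without 2, 3 or 5 (up to 0.0931) and Dlx1 without 1, 2, 3 or 5 (up to 0.0683), and without number 2 Lhx6 and Gad2 were also called (-2.95 and -0.82). With acute libraries alone in the fit only Dlx1 was called. Dlx1 was lost without the 4 IP libraries of fewest detected genes (0.105) and without the 3 input libraries described further on (0.057). Lhx6 was called under DESeq2 (0.0128), its size factors (0.0367) and voom (0.00101), and Gad2 under DESeq2 (0.0481) and voom (0.0113).

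In chronic mice 3 of the 9 genes were called lower in IP, where 20.0% of all genes were, a share near that of the 9. Dlx1 averaged 15.0 ± 11.9 CPM in chronic IP and 53.9 ± 6.75 in chronic input (log2 ratio -1.85 ± 0.60, adjusted p = 0.0183). Npy averaged 22.3 ± 16.8 CPM in chronic IP and 59.3 ± 8.15 in chronic input (-1.41 ± 0.46, adjusted p = 0.0190). Pvalb averaged 60.2 ± 28.8 CPM in chronic IP and 106.1 ± 17.1 in chronic input (-0.82 ± 0.28, adjusted p = 0.0285), where its highest IP library, 100.6, lay within the input range. Without 1 numbered pair of libraries, Dlx1 was lost once (number 3, adjusted p = 0.0663), Npy 3 times (numbers 1, 2 and 3, up to 0.105) and Pvalb 3 times (numbers 2, 3 and 4, up to 0.121). With chronic libraries alone in the fit all 3 were lost (Dlx1 0.285, Npy 0.0779, Pvalb 0.123) and Vip was called (-0.86, adjusted p = 0.0334). Npy and Pvalb were also lost under voom (0.167 and 0.0897) and without the 3 input libraries described further on (0.0558 and 0.0521). Lhx6 was called under voom (-3.23, adjusted p = 0.0234), and Vip (-0.97, adjusted p = 0.00231) and Lhx6 (-1.68, adjusted p = 0.0335) without the 4 IP libraries of fewest detected genes.

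In TMM-scaled CPM, Slc32a1 had no lower mean in IP than in input in any phase. It averaged 69.6 ± 32.05 CPM in healthy IP and 67.6 ± 20.05 in healthy input, 86.5 ± 23.0 in acute IP and 65.8 ± 12.3 in acute input, and 113.3 ± 31.6 in chronic IP and 72.3 ± 16.3 in chronic input. The log2 ratios were 0.04 ± 0.29 in healthy, 0.40 ± 0.29 in acute and 0.65 ± 0.32 in chronic mice, called in none of the 3 phases (adjusted p = 0.959, 0.390 and 0.146). On plain library totals the healthy mean was lower in IP, at 23.8 CPM per kb against 25.7 in input. The acute and chronic means stayed higher in IP. Of the exon length of Slc32a1 24.9% is shared with an antisense gene, and how reads of that stretch were counted was not examined.

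**Figure D3:**
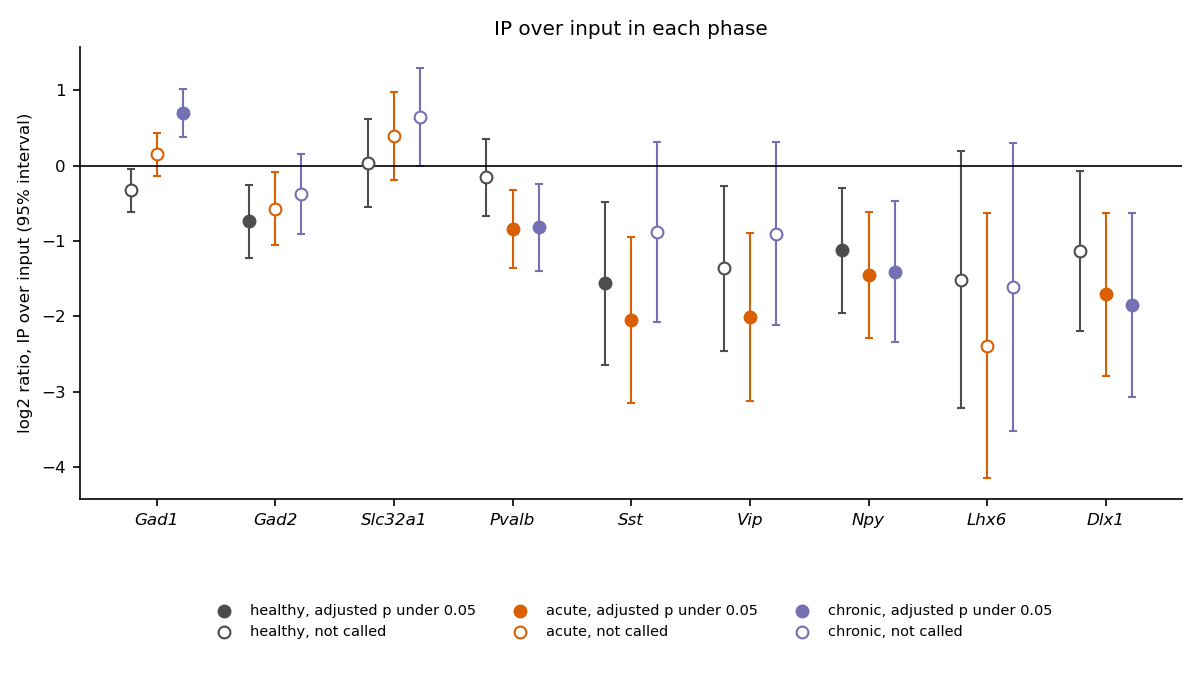
Log2 ratio of IP over input (vertical axis) for each of the 9 genes in healthy, acute and chronic mice. The 95% intervals are from edgeR's fit of all 28 libraries, with a single spread per gene, and may be too narrow for IP. Filled points passed an adjusted p of 0.05. Gad1 in chronic mice, at 0.70, is the only filled point above 0, and the intervals of Sst, Vip, Lhx6 and Dlx1 are the widest.

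Cell type markers differed between the fractions in part. The 8 oligodendrocyte markers summed to 1061 to 1386 CPM in healthy IP against 2005 to 2754 in healthy input, to 865.4 to 1223 in acute IP against 2003 to 2589 in acute input, and to 1231 to 3059 in chronic IP against 2468 to 3664 in chronic input. The 11 layer 5 markers summed to 1335 to 1795 CPM in healthy IP against 757.0 to 821.9 in healthy input, to 1742 to 2346 in acute IP against 783.0 to 864.8 in acute input, and to 1264 to 1902 in chronic IP against 719.9 to 825.1 in chronic input. Of the 8 oligodendrocyte markers 0 were called higher and 5 lower in healthy IP, 0 and 5 in acute IP, and 2 and 3 in chronic IP. For 8 astrocyte markers these counts were 0 and 2, 0 and 3, and 1 and 1, with median log2 ratios of -1.34, -1.19 and -1.004. For 8 endothelial and mural markers they were 1 and 0, 0 and 1, and 0 and 1, with medians of 1.01, 0.30 and 0.45. Of all genes 7.20%, 8.56% and 8.74% were called higher and 14.4%, 10.1% and 20.0% lower in healthy, acute and chronic IP. The endothelial counts and the chronic astrocyte counts lie near or below these shares. No microglia marker of 8 was called by edgeR in any phase, at medians of -1.43, -2.13 and -0.66. The part of these cells in the values of the 9 genes was not tested.

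Among 13 other interneuron transcription factors, 4 in healthy, 1 in acute and 2 in chronic mice were called lower in IP and 0 higher, with median log2 ratios of -1.16, -1.08 and -0.56. Of all genes 14.4%, 10.1% and 20.0% were called lower, so the acute and chronic counts lie at or below that share. In healthy mice Nkx2-1, Satb1 and Prox1, transcription factors of interneuron lineages, were among the 4. Nkx2-1 had 0 counts in all 5 healthy IP libraries and did not pass the filter of the IP fit. Its call thus sets input against the floor. Prox1 had 0 counts in 1 healthy IP library.

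The other interneuron markers were called in both directions, but most had a lower level in IP. Log2 ratios below 0 were found in 18 of 24 in healthy, 19 in acute and 17 in chronic mice. The median over all genes was also below 0, at -0.23, -0.36 and -0.32. Of 24, 2 were called higher and 2 lower in healthy IP, 1 and 3 in acute IP, and 1 and 5 in chronic IP, with medians of -0.70, -0.95 and -0.39. These counts lie near the shares of all genes called, which were 7.20% higher and 14.4% lower in healthy, 8.56% and 10.1% in acute, and 8.74% and 20.0% in chronic mice. Lamp5, a membrane protein also made by excitatory neurons, was higher in IP in all 3 phases (log2 ratio 1.21 ± 0.13 in healthy, 1.23 ± 0.13 in acute and 0.95 ± 0.14 in chronic mice). Kcnc1, a potassium channel of fast-spiking neurons, was lower in all 3 (-1.15 ± 0.20, -1.14 ± 0.20 and -1.12 ± 0.22). Abat, the enzyme that breaks GABA down, was lower in healthy IP (-1.11 ± 0.16, adjusted p = 9.01e-06) and in acute IP (-0.48 ± 0.16, adjusted p = 0.0301), and in chronic mice it had -0.08 ± 0.17 (adjusted p = 0.830). Its chronic change was larger in IP than in input by 1.03 ± 0.24 (adjusted p = 0.0358), the only call among 7 genes of GABA metabolism and reuptake in that contrast. In chronic against healthy IP itself Abat had a log2 change of 0.96 ± 0.23 and missed the threshold (adjusted p = 0.0867).

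GABA receptor and postsynaptic genes, which act in the cell that receives GABA, were called in both directions. Of 19, 2 were called higher and 6 lower in healthy IP, 3 and 5 in acute IP, and 3 and 4 in chronic IP, with median log2 ratios of -0.58, -0.31 and -0.31. Beside the same shares of all genes, the chronic count of lower genes is at the background. Gphn, the scaffold gephyrin, was higher in IP in all 3 phases (1.004 ± 0.13 in healthy, 1.13 ± 0.13 in acute and 1.22 ± 0.15 in chronic mice), as was Slc12a5, the chloride exporter of mature neurons (0.52 ± 0.18, 0.998 ± 0.18 and 0.99 ± 0.20). The receptor subunit Gabra4 was lower in all 3 (-1.25 ± 0.25, -1.40 ± 0.25 and -1.18 ± 0.28).

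In input, the calls among the 9 genes were in acute against healthy libraries. Gad2 had 200.1, 168.0, 171.5, 163.0 and 167.8 CPM in acute input, against 198.1, 194.0, 266.1, 209.6 and 185.6 in healthy input. Only acute library 1 lay within the healthy range. The mean was 174.1 ± 14.9 CPM in acute and 210.7 ± 32.2 in healthy input (SD, n = 5 each), a log2 change of -0.28 ± 0.09 (adjusted p = 0.0469). Vip had 26.5, 34.1, 31.9, 35.3 and 41.7 CPM in acute input, against 25.7, 24.8, 28.6, 28.6 and 28.1 in healthy input. Of the 5 acute libraries, 4 lay above all healthy ones, and the log2 change was 0.32 ± 0.10 (adjusted p = 0.0278). These 2 of the 9 genes were called, in opposite directions, in a contrast where 19.7% of all genes were called, a share near that of the 9.

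Both calls lay close to the threshold. Gad2 held in 4 of 10 fits without 1 library (adjusted p from 0.0279 to 0.116, lost without acute input library 2, 3, 4 or 5 or healthy input library 1 or 4) and under 3 of 7 other alternatives. Vip held in 5 of 10 (0.00338 to 0.0878, lost without acute input library 2, 4 or 5 or healthy input library 1 or 2) and under all 7. Without the 3 input libraries described next, the log2 change of Gad2 was -0.16 (adjusted p = 0.0892). The summed astrocyte markers were 1043 to 1597 CPM in acute input and 720.5 to 1030 in healthy input, and the summed microglia markers 94.9 to 153.1 in acute and 44.2 to 65.3 in healthy input. None of these glial markers was at 0 in an acute or healthy input library, and their part in the 2 calls was not tested.

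Chronic input held no call among the 9. By edgeR 0 of the 9 genes were called against healthy input, where 2.74% of all genes were, and none had an unadjusted p under 0.05. Against acute input 0 of the 9 were called, where 7.69% of all genes were, and Vip alone had an unadjusted p under 0.05 (log2 change -0.24 ± 0.10, adjusted p = 0.170). DESeq2 and voom called 0 in both. Vip was called against acute input without acute library 1 (-0.32, adjusted p = 0.0412).

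The wider GABA genes of input were described beside them. Of 19 receptor and postsynaptic genes, 7 were called lower and 0 higher in acute against healthy input, with a median log2 change of -0.22 against -0.01 over all genes tested. Of all genes 8.59% were called lower and 11.1% higher in this contrast. Among them were the receptor subunits Gabra4 (-0.36 ± 0.06) and Gabrb2 (-0.40 ± 0.07) and the scaffold gene Gphn (-0.22 ± 0.05). In chronic against acute input 5 of the 19 were called higher and 0 lower, Gabra4 (0.36 ± 0.06), Slc12a2, a chloride importer (0.59 ± 0.10), and Gabrb2 among them, where 2.95% of all genes were called higher. Both contrasts use the acute input libraries, so these are not independent. Against healthy input, 0 of the 19 were called in chronic input by edgeR. Of 24 other interneuron markers, 4 were called lower in acute input and 0 higher, beside the same 8.59% and 11.1% of all genes: Nos1, a nitric oxide synthase (-0.48 ± 0.08), Erbb4, the neuregulin receptor (-0.28 ± 0.06), Cnr1, the cannabinoid receptor (-0.21 ± 0.06), and Adarb2 (-0.23 ± 0.07). Of 13 interneuron transcription factors, 1 was called higher and 2 lower, Dlx6 and Nkx2-1.

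Within the input groups, 3 libraries stood apart in 2 of the 9 genes. Healthy library 3, acute library 5 and chronic library 4 had Slc32a1 at 102.4, 87.5 and 96.1 CPM, against 52.6 to 67.5 in the other 11 input libraries. The same 3 had Sst at 213.2, 232.2 and 215.7 CPM, against 118.4 to 153.5 in the other 11. The ranges did not overlap in either gene and overlapped in the other 7. Acute library 5 also had the highest Npy, at 82.1 CPM. There was 1 such library in each phase. They were singled out by these values, so the separation is a description with no test.

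**Figure D4:**
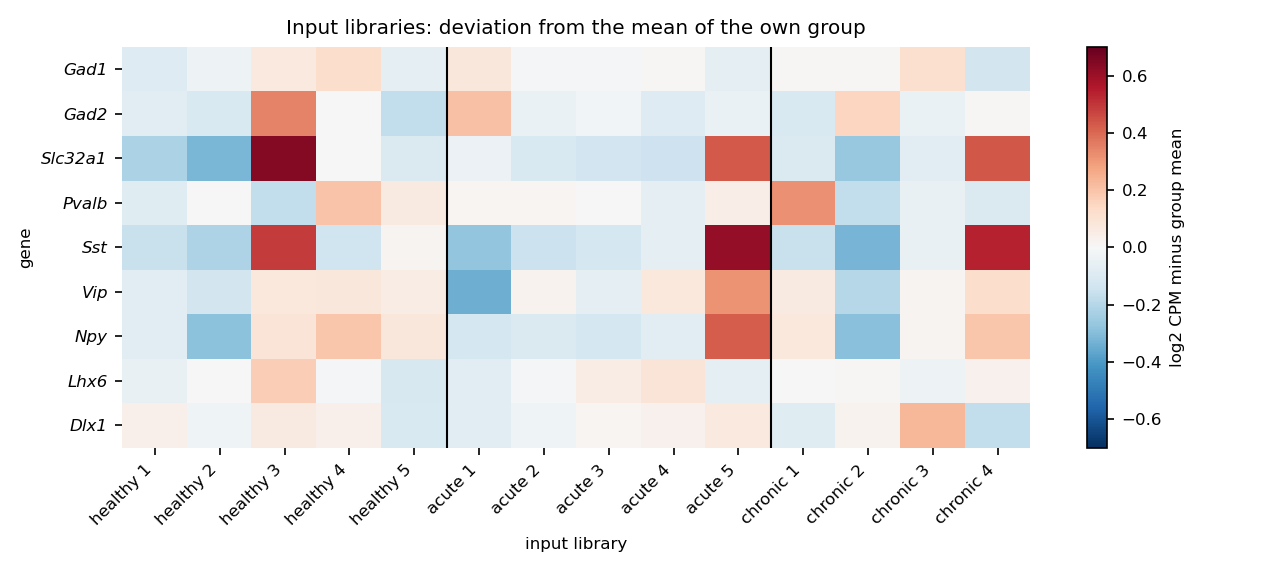
Log2 CPM of each of the 9 genes (rows) in the 14 input libraries (columns), as the difference from the mean of the library's own group; red is above and blue below that mean, and black lines part the phases. Slc32a1 and Sst are red together in healthy library 3, acute library 5 and chronic library 4.

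For each of the 9 genes the gene with the nearest pattern was found, by the root mean square difference of log2 CPM after centring each gene on its own mean over 14 libraries of a fraction. In input, among 11290 genes, Gad1 had Rab3gap1 (0.049 log2 units) and Dlgap4 (0.051) among its nearest genes, beside its own spread of 0.076 about its mean. Slc32a1 lay nearest to Aplp1 (0.099 beside a spread of 0.283) and Sst to Tmem130 (0.105 beside 0.299). Gad2 lay nearest to Kcnab1, Pvalb to Kcnab3, Vip to Ndufb11, Npy to Igsf8, Lhx6 to Gorasp1 and Dlx1 to Xab2, at 0.055 to 0.089. In IP, among 10589 genes, Gad1 had Herc3 (0.210 beside a spread of 0.484) and Astn1 (0.223) among its nearest genes. Gad2 lay nearest to Unc80 (0.265), Slc32a1 to Chrm1 (0.300) and Pvalb to Cox6b1 (0.358). Sst lay nearest to Itgb1, Vip to Pcdhb22, Npy to Rpl31, Lhx6 to Steap2 and Dlx1 to Yap1, at 0.408 to 0.633. The spreads of Sst, Vip, Lhx6 and Dlx1 about their means, 2.39, 1.77, 2.76 and 1.99, include the libraries at 0 counts, against 0.857 for Npy, which had none. The libraries of a fraction share depth and tissue makeup, so nearness is a description of these libraries.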

How the data were processed

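Poly A-enriched RNA was sequenced from 28 libraries in 6 groups. The deposited values are raw counts per gene, made by the authors, per the file headers, with featureCounts 1.5.1 on exons by gene, as read pairs, without strand, on the Ensembl release 79 annotation of GRCm38. The submitters' processing notes name STAR 2.4, GRCm38 (mm10) and DESeq2. The header names 36 alignment files, of which 28 columns were used, and 97.3% of genes had a symbol. Counts were filtered (filterByExpr, minimum count 10, minimum total 15), scaled by TMM and tested in R 4.3.3 with edgeR 4.0.16 (robust quasi-likelihood). Adjusted p-values are Benjamini-Hochberg values over all genes tested, with a threshold of 0.05. Phases were compared within 14 libraries of a fraction, and IP with input, and the interactions, in all 28. All 9 genes passed the filter in every contrast, so the permutation test planned for genes under it was not needed. Ratios of Gad1 to Gad2 counts, added after the data were seen, had exact permutation tests (scipy). DESeq2 1.42.0 and voom in limma 3.58.1 were alternatives, and the steps were tested on simulated data. All 9 genes were named in the text, with up to 4 genes of smallest adjusted p per list (2 where none passed). Some genes that this rule names are not reported here. The genes and lists were chosen with earlier results of these data known. Promoters are RefSeq's (GRCm38.p6). All 9 genes had one.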

Additional observations from a re-analysis of the deposited data

Results flagged for a closer look

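Within groups of 4 or 5 libraries, 1 library lay far from the others in 7 of 54 groups, where chance gives about 1 in 20. Sst stood at 167 CPM in chronic IP library 4, with the next at 58.4 CPM. In acute input, library 5 had Sst at 232 CPM (next 145), Slc32a1 at 87.5 (next 63.2) and Npy at 82.1 (next 58.1). In healthy input, library 3 had Sst at 213 CPM (next 154) and Slc32a1 at 102 (next 65.8). Gad2 stood at 200 CPM in acute input library 1 (next 172).

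The chronic change of Gad1 differed between the fractions. It was larger in IP than in input by 1.03 ± 0.21 on the log2 scale (adjusted p = 0.0170 by edgeR's quasi-likelihood test), and the 95% interval ran from 0.60 to 1.45. That interval comes from the fit with a single spread per gene and may be too narrow for IP. By the same test the call was lost without the chronic libraries numbered 4 (adjusted p = 0.0653). It was also lost without the 3 input libraries that stood apart in Slc32a1 and Sst (adjusted p = 0.136).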

How the results depend on the processing

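The settings were DESeq2's test, its size factors alone, all genes unfiltered, a replicate block, the contrast's groups alone and each replicate left out, and, chosen after seeing the data, voom, 4 IP libraries with the fewest genes left out (the smaller IP set) and 3 input libraries left out for their Slc32a1 and Sst (the smaller input set). Of 1521 alternative values of the 9 genes, 1344 kept direction and side of the threshold, 68 kept direction and lost the threshold, 28 kept direction and passed it, and 81 changed sign, all 81 of values called in neither fit. The cause was not tested. The number of the 9 called, 0 in acute against healthy IP, was 1 with voom; 0 in chronic against acute IP, it was 1 with DESeq2. In acute against healthy input it was 2, and 1 (Vip) with no filter, with the block, with these groups alone and in the smaller input set. In IP against input it was 3 in healthy mice, and 5 with DESeq2, 6 with these groups alone, 5 in the smaller IP set and 0 in the smaller input set; 5 in acute mice, and 1 with these groups alone and 8 with voom; 4 in chronic mice, and 2 with these groups alone, 2 in the smaller input set, 3 with voom and 6 in the smaller IP set. The acute interaction had 0, and 1 in the smaller IP set, and the chronic interaction 1, and 0 in the smaller input set. With each replicate left out the number called was 0 to 1 in chronic against healthy IP, 0 to 2 in acute against healthy input, 0 to 1 in chronic against acute input, 1 to 2, 2 to 5 and 1 to 3 in healthy, acute and chronic IP against input, and 0 to 1 in the chronic interaction. The labels do not say that a number marks 1 mouse. The median correlation of IP and input deviations of same-numbered libraries was 0.09 in healthy, 0.05 in acute and 0.12 in chronic mice. Of these 14 pairs 7 passed 0.1, against 0 of 52 pairs with other numbers, and 19 of 28 libraries correlated best with their own number. That is a hint of pairing from the data, but not every pair passed 0.1, so the numbers were not used as pairs. The replicate block changed the call of 3 values, Gad2 in acute against healthy input (-0.27), and Sst in healthy (-1.66) and Dlx1 in acute (-1.79) IP against input, all to not called. Under voom the sign turned in acute against healthy IP Sst (0.038) and Npy (0.0099), in chronic against healthy IP Npy (0.18), in chronic against acute IP Npy (0.17) and Lhx6 (-1.19), in acute against healthy input Sst (-0.031), in chronic against acute input Pvalb (-0.0025), in the acute interaction Sst (0.076) and in the chronic interaction Npy (0.11). Under the smaller IP set the sign turned in acute against healthy IP Sst (0.10) and Lhx6 (0.014), in chronic against healthy IP Npy (0.42), in chronic against acute IP Npy (0.54) and Lhx6 (-0.14), in healthy IP against input Slc32a1 (-0.097), in the acute interaction Sst (0.20) and Lhx6 (0.044) and in the chronic interaction Npy (0.36). Under the replicate block the sign turned in chronic against healthy IP Lhx6 (0.089), in chronic against acute IP Npy (0.071), in acute against healthy input Sst (-0.011), in chronic against healthy input Sst (0.057), in chronic against acute input Sst (0.067) and Npy (0.012) and in healthy IP against input Slc32a1 (-0.098). Under the smaller input set the sign turned in acute against healthy input Slc32a1 (0.043) and Sst (-0.023) and in chronic against healthy input Gad1 (0.016), Lhx6 (0.018) and Dlx1 (0.0041). With each replicate left out the sign turned for some fits in acute against healthy IP Gad2 (-0.33 to 0.087) and Npy (-0.63 to 0.17), in chronic against healthy IP Lhx6 (-0.55 to 0.29) and Npy (-0.87 to 0.12), in chronic against acute IP Npy (-0.66 to 0.39), Pvalb (-0.35 to 0.34) and Dlx1 (-0.78 to 0.17) and in acute against healthy input Gad1 (-0.020 to 0.036), Sst (-0.18 to 0.16) and Slc32a1 (-0.16 to 0.16). It also turned in chronic against healthy input Pvalb (-0.017 to 0.15), Sst (-0.24 to 0.14), Slc32a1 (-0.080 to 0.30), Npy (-0.0069 to 0.16) and Lhx6 (-0.049 to 0.029), in chronic against acute input Pvalb (-0.11 to 0.062), Sst (-0.25 to 0.17), Npy (-0.13 to 0.071) and Slc32a1 (-0.038 to 0.27), in healthy IP against input Slc32a1 (-0.17 to 0.24), in the acute interaction Gad2 (-0.079 to 0.43) and Npy (-0.76 to 0.010) and in the chronic interaction Lhx6 (-0.52 to 0.32) and Npy (-0.87 to 0.054). In IP 4 of the 9 genes had libraries at 0 counts, in deep libraries too (13414484 counts for Lhx6 and 15383862 for Dlx1).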
